A study of Rattus norvegicus with 24 samples.

Results

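The genes described here encode the rat major histocompatibility complex (MHC), whose loci carry the prefix RT1 in the rat, and the partners that switch them on or load them with peptide. They were chosen by name: every gene whose symbol begins with RT1-, together with Cd74, Ciita, B2m, Tap1, Tap2, Tapbp, Psmb8, Psmb9 and Psmb10. The rule found 48 of the 30043 genes in the table. By symbol, 10 were class II genes (RT1-B, RT1-D and RT1-H names), 29 were class I genes (all other RT1 names), 2 were partners of class II (Cd74 and Ciita) and 7 were partners of class I. Of these, 31 had enough reads to be tested: 8 class II genes, 14 class I genes and all 9 partners.

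Gene expression was measured by RNA sequencing of a piece of lung from 24 male Fischer rats (F344/DuCrl), bought at 3 months of age and kept in whole-body inhalation chambers for 29 weeks, 6 rats in each of 4 groups. The air group breathed air throughout. The silica group received Min-U-Sil5, a fine crystalline silica dust, at 15 mg/m3 for 6 hours a day on 5 days of week 3, and air otherwise. The smoke group breathed cigarette smoke for 3 hours a day on Tuesdays and Fridays, at 40 mg/m3 in week 1 and 80 mg/m3 in week 2, air in week 3, and 80 mg/m3 again from week 4 to week 29. The combined group received both: smoke at 45 mg/m3 in week 1 and 80 mg/m3 in week 2, silica in week 3 as in the silica group, and smoke at 80 mg/m3 from week 4. The starting smoke level therefore differed slightly between the smoke and combined groups. The labels describe separate animals, and a library number names an animal within its group and pairs nothing. A piece of lung mixes many cell types, so more cells of a type and more RNA per cell cannot be told apart in any value given here.

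MHC class II molecules are pairs of an alpha and a beta chain that show peptides from engulfed material to helper T cells. In the rat the classical pairs are RT1-B and RT1-D, the counterparts of human DQ and DR. They are made mainly by dendritic cells, macrophages and B cells, and in the lung also by alveolar type 2 cells. The invariant chain, encoded by Cd74, holds the groove until the peptide is loaded, RT1-DM exchanges the remnant of that chain for peptide, RT1-DO restrains RT1-DM, and Ciita is the coactivator that switches the class II promoters on. MHC class I molecules pair a heavy chain with beta-2 microglobulin (B2m) and show peptides from inside the cell to cytotoxic T cells. Those peptides are cut by the proteasome, with Psmb8, Psmb9 and Psmb10 as the subunits of its interferon-inducible form, carried into the endoplasmic reticulum by Tap1 and Tap2, and loaded with the help of tapasin (Tapbp).

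Class II promoters are known for an X box, bound by the regulatory factor X complex, that is followed by a Y box bound by NF-Y, and Ciita acts through the proteins on these boxes. Promoter windows of 300 bases, from 250 bases before the transcription start to 50 after it, were taken from RefSeq (rat assembly GRCr8) and were present for 42 of the 48 genes. They are reference sequences: the MHC differs between rat strains, and the bases of these F344/DuCrl animals, or how far such differences affected the read counts, were not examined. The following stretches run 5′ to 3′ on the gene's own strand, with the X box and the Y box in capitals. They are shown because RT1-Da, RT1-Bb, RT1-Db1 and RT1-Ba gave the main class II result below, while RT1-DOb carries the same pair of boxes and was not called in any comparison.
RT1-Da, chr20:4515295-4515384, plus strand: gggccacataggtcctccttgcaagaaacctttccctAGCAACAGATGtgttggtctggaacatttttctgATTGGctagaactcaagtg
RT1-Bb, chr20:4604149-4604238, minus strand: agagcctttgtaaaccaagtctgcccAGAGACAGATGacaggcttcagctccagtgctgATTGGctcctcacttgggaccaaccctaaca
RT1-Db1, chr20:4560193-4560282, minus strand: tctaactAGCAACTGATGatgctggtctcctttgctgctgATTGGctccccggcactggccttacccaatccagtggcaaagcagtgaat
RT1-DOb, chr20:4627554-4627643, minus strand: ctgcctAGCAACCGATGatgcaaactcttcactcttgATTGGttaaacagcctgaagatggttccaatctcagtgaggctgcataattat
RT1-Ba, chr20:4576937-4577026, plus strand: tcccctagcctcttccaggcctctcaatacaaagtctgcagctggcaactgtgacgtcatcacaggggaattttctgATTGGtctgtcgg

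Each of these stretches lies from 120 to 31 bases before the start of its gene. The X box was searched as AGNNAC, any base and then GATG, and the Y box as ATTGG, each on both strands. The X box letters were in the windows of 5 of 9 class II genes and of 0.95% of all 33469 windows, and the Y box letters in 9 of 9 and in 37.5%. An X box followed on 1 strand by a Y box was found in RT1-Bb, RT1-Da, RT1-Db1, RT1-Db2 and RT1-DOb, with 31 to 34 bases from the first base of one to the first base of the other, and in 0.143% of all windows. RT1-Ba had a Y box match without these X box letters, which says only that they are not in this window. Among 25 class I windows, the pair was found in RT1-CE10 alone, 34 bases apart.

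Class I promoters are known for an interferon-stimulated element, searched as GAANNGAAA on both strands. It was found in 8 of 25 class I windows, 0 of 9 class II windows and 8.54% of all windows. The search letters of the gamma-activated site, TTCNNNGAA, were in 2 of 25 class I windows, 0 of 9 class II windows and 8.87% of all. A called and an uncalled class I gene are shown with the element in capitals, which these strands read in reverse complement.
RT1-A1, chr20:4907059-4907128, plus strand: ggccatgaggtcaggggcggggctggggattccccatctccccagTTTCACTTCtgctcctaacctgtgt
RT1-CE5, chr20:3484212-3484281, minus strand: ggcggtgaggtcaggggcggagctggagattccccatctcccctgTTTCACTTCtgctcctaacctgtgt
These stretches share the same base at 65 of 70 places. Among the partners, the element was in the windows of Cd74, Psmb8, Tap2 and Tapbp.

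**Figure D1:**
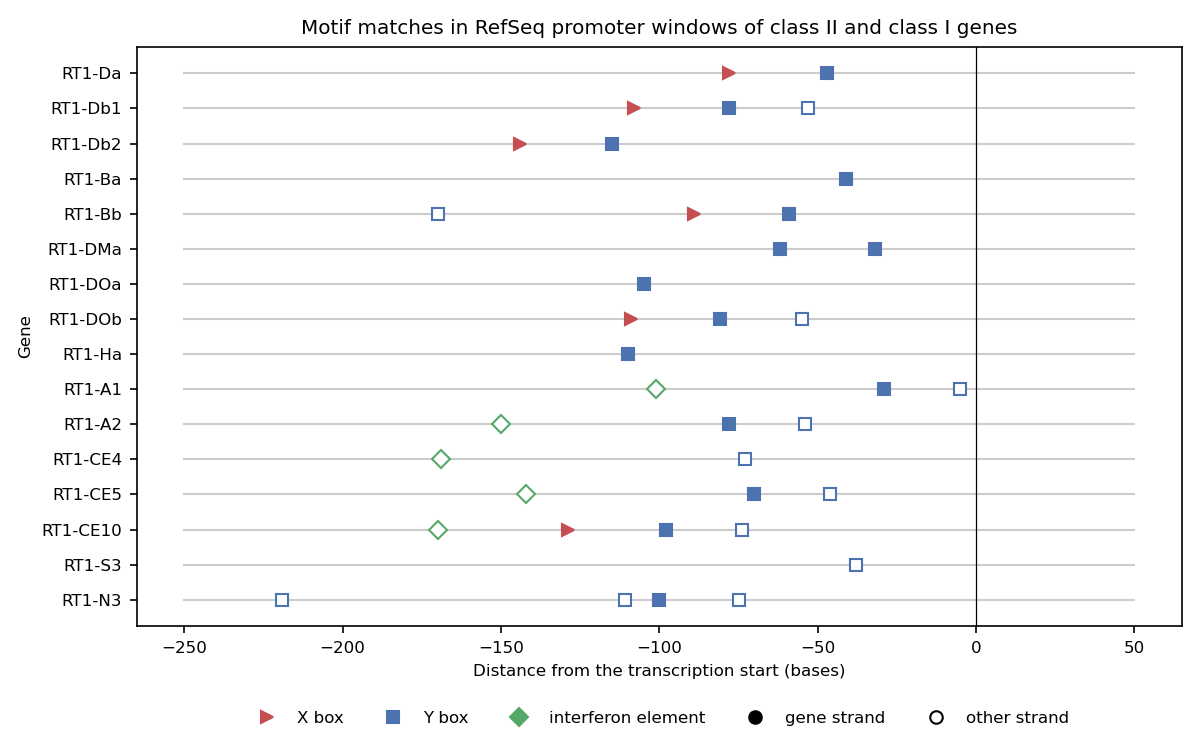
Motif matches in the RefSeq promoter windows of 9 class II and 7 class I genes; the horizontal axis is the distance from the transcription start in bases, filled symbols are matches on the gene's strand and open symbols matches on the other strand. The X box and Y box pair is seen in RT1-Da, RT1-Db1, RT1-Db2, RT1-Bb, RT1-DOb and RT1-CE10, and the interferon element in RT1-A1, RT1-A2, RT1-CE4, RT1-CE5 and RT1-CE10.

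Levels are given as CPM, counts relative to library size after scaling by the trimmed mean of M values (TMM). The shallowest library, smoke 2, had 21629 counts, the deepest, air 6, had 4687805, and the median library had 2335358. Before TMM scaling, a gene's 3 counts were worth 139 CPM in smoke 2 and 1.29 CPM at the median depth. A 0 in smoke 2 is therefore not an absence. Haemoglobin took 56.0% of the counts of smoke 2 and 0.249% to 1.54% elsewhere. Mmp12, a macrophage elastase, was at 3.20 CPM in the library labelled silica 1 against 57.4 to 75.8 CPM in the other silica libraries, and at 57.2 CPM in the library labelled smoke 1 against at most 11.8 CPM in the other smoke libraries. Air 6 had Col1a1, a collagen chain, at 461 CPM against 42.8 to 119 CPM in the other air libraries. Labels were kept, and results that rest on these libraries are also given without them. Lung identity was plain: the summed level of 8 alveolar type 2 cell markers ran from 14354 to 31133 CPM in all libraries except smoke 2, where it was 1906 CPM.

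In the combined group, the 4 classical class II chains, RT1-DMa, Cd74 and Ciita rose against air. That is 5 of the 8 tested class II genes and both class II partners called higher and none lower, at a Benjamini-Hochberg adjusted p under 0.05 in edgeR's quasi-likelihood test. Over all 31 members tested, 10 were called higher and 0 lower, beside 11.6% of all 13322 tested genes called higher. The median log2 fold change of the 10 tested class II genes and partners was 0.69, that of the 21 class I genes and partners 0.14, and that of all genes −0.01. All 6 combined libraries lay above all 6 air libraries for 7 of the 31 members, namely RT1-Ba, RT1-Bb, RT1-Da, RT1-Db1, Cd74, Ciita and B2m, and for 6.37% of all tested genes.

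RT1-Ba (gene ID 309621), the alpha chain of the RT1-B pair, ran from 68.8 CPM over a median of 77.9 to 84.1 in air, and from 114 over 131 to 144 in the combined group. The lowest combined library was therefore above the highest air library. The log2 fold change was 0.73 ± 0.12 (SE), a 1.66-fold rise (edgeR adjusted p = 5.42e-05). RT1-Bb (gene ID 309622), its beta chain, ran from 73.6 over 191 to 204 CPM in air and from 240 over 325 to 443 in the combined group, and air 6 was the lowest air library. Its log2 fold change was 1.02 ± 0.20 (adjusted p = 5.72e-04), and 0.87 without air 6 (adjusted p = 5.47e-04).

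The chains of the RT1-D pair moved in the same way. RT1-Da (gene ID 294269), the alpha chain, had 249, 320 and 336 CPM as the lowest, median and highest air values and 434, 508 and 686 CPM in the combined group, with no overlap. Its log2 fold change was 0.82 ± 0.15, or 1.77-fold (edgeR adjusted p = 2.27e-04). RT1-Db1 (gene ID 294270), a beta chain, had 24.7, 26.2 and 37.1 CPM in air and 38.5, 48.8 and 67.9 in the combined group. These groups lay close to each other without overlapping, with a log2 fold change of 0.82 ± 0.20 (adjusted p = 0.00294). The calls of all 4 classical chains were kept whichever single library was left out and in every other alternative tried.

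**Figure D2:**
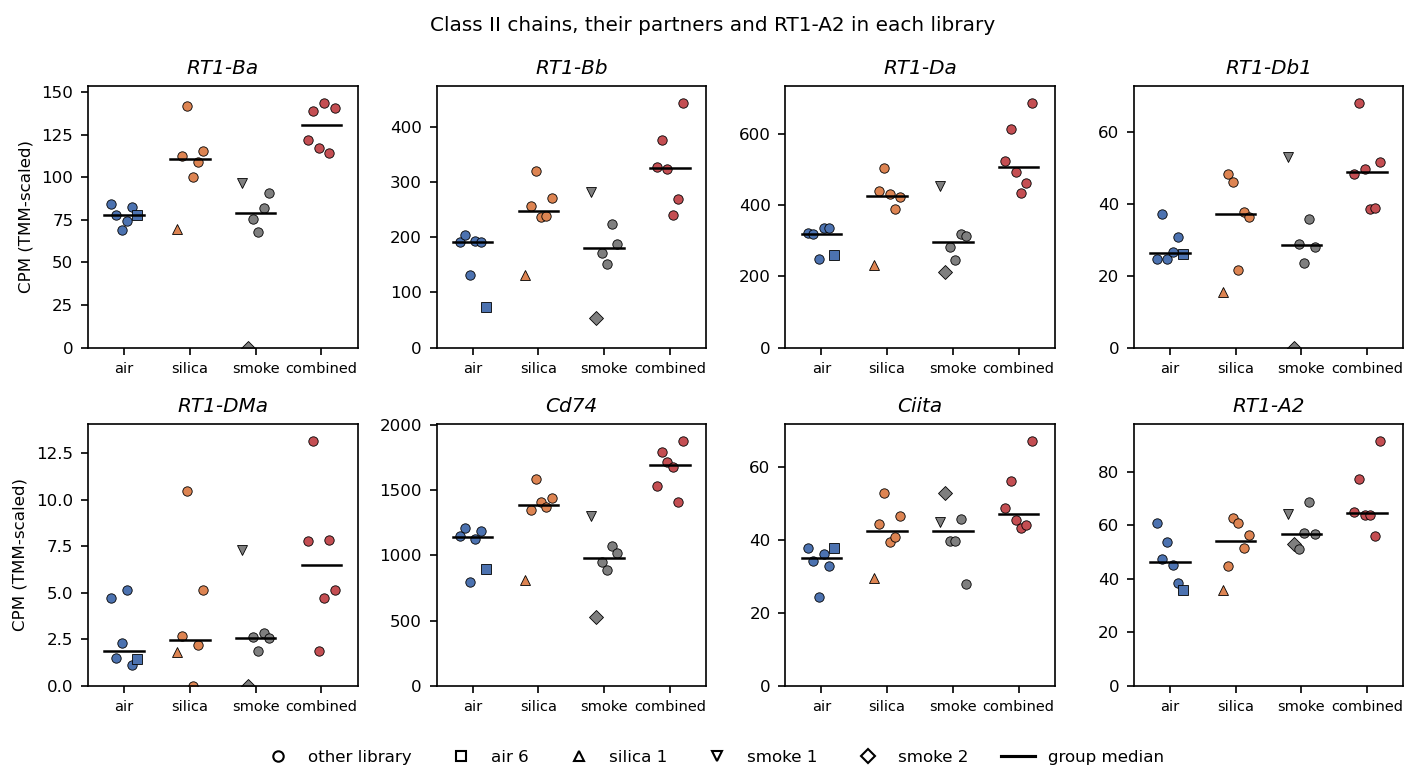
TMM-scaled CPM of 8 genes in each of the 24 libraries by group, with horizontal lines at the group medians and separate symbols for air 6, silica 1, smoke 1 and smoke 2. The combined libraries lie above all air libraries for RT1-Ba, RT1-Bb, RT1-Da, RT1-Db1, Cd74 and Ciita, and silica 1 is the lowest silica library for all 8 genes except RT1-DMa.

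Cd74 (gene ID 25599), the invariant chain, ran from 797 CPM over 1140 to 1208 in air and from 1408 over 1696 to 1878 in the combined group. No combined library reached down to the air range, and the log2 fold change was 0.65 ± 0.15, or 1.57-fold (edgeR adjusted p = 0.00188). Ciita (gene ID 85483), the coactivator, had 24.4, 35.2 and 37.9 CPM in air and 43.2, 47.1 and 67.1 CPM in the combined group. It was also free of overlap, with a log2 fold change of 0.59 ± 0.13 (adjusted p = 0.00180). Both calls were kept in every alternative.

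The peptide exchange genes gave less firm values, since RT1-DMa was sparse and RT1-DMb varied widely within groups. RT1-DMa (gene ID 294274), the alpha chain of the exchange factor, ran from 1.12 over 1.89 to 5.16 CPM in air and from 1.88 over 6.47 to 13.1 CPM in the combined group, and the ranges overlapped. Its log2 fold change of 1.40 ± 0.45 passed the test (edgeR adjusted p = 0.0234), but the call was lost without air 6 (adjusted p = 0.0548), without combined 2, in DESeq2 and in limma voom. RT1-DMb, its beta chain, ran from 1.05 over 11.0 to 25.4 CPM in air and from 9.39 over 14.3 to 34.6 CPM in the combined group, and its log2 fold change of 0.47 ± 0.47 was not called. The RT1-DO chains, RT1-DOa at −0.03 ± 0.29 and RT1-DOb at 0.17 ± 0.26, were not called either, and at group medians of 3.68 to 6.46 CPM their depth was low. The 2 untested class II genes, RT1-Db2 and RT1-Ha, never had more than 4 counts in a library.

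Class I calls were near the background. Against air, 2 of 14 tested class I heavy chain genes and 1 of 7 class I partners were called higher in the combined group, beside the 11.6% of all tested genes. RT1-A2 (gene ID 24974) and RT1-A1 (gene ID 24973), symbols of the classical class I locus, were the heavy chains called. RT1-A2 had 35.9, 46.3 and 61.0 CPM as the lowest, median and highest values in air and 55.8, 64.5 and 91.4 CPM in the combined group. The ranges overlapped, and the log2 fold change was 0.59 ± 0.13 (edgeR adjusted p = 0.00165). RT1-A1 had 34.0, 45.8 and 54.2 CPM in air and 50.7, 62.4 and 87.8 CPM in the combined group, again with overlap, and a log2 fold change of 0.59 ± 0.15 (adjusted p = 0.00515). Rat class I genes include near-identical copies, so reads can be split among such copies by the counting. How far this affects each single heavy chain value was not tested.

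Of the 14 tested class I genes, 4 had values below the air level, none of them called by edgeR with all libraries: RT1-S3, RT1-N3, RT1-CE1 and RT1-T24-3. RT1-S3 ran from 99.0 over 219 to 259 CPM in air and from 159 over 178 to 211 in the combined group (log2 fold change −0.14 ± 0.15, not called). RT1-N3 (−0.25 ± 0.14) and RT1-CE1 (−0.37 ± 0.17) were also not called. Air 6 held the lowest air value of RT1-S3, RT1-N3 and RT1-CE1. Without air 6 these 3 genes were called lower, at −0.29 (edgeR adjusted p = 0.0423) for RT1-S3, −0.37 (adjusted p = 0.0412) for RT1-N3 and −0.49 (adjusted p = 0.0299) for RT1-CE1. Of all 13275 genes tested in that fit, 1272 were called lower. In limma voom, 2 class I genes or partners were called lower, beside 1771 of all 13322 genes. Without air 6, silica 1, smoke 1 and smoke 2, edgeR called 3 lower, beside 1606 of all 13518 genes.

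The remaining RT1-CE symbols had small positive values that were not called: 0.24 ± 0.13 for RT1-CE7, 0.14 ± 0.22 for RT1-CE10, 0.11 ± 0.12 for RT1-CE5 and 0.10 ± 0.14 for RT1-CE4. RT1-CE5, whose printed promoter stretch nearly matches that of RT1-A1, had medians of 70.4 CPM in air and 75.5 CPM in the combined group. RT1-M3-1, a class Ib gene of the kind that presents formylated peptides, had medians of 31.7 and 34.6 CPM (0.07 ± 0.12). The other 4 tested class I genes ran from −0.51 ± 0.27 (RT1-T24-3, which was at 0.06 without air 6) to 0.33 ± 0.36 (RT1-M2), and none was called. Of the 15 untested class I genes, 5 had no count in any library, and outside air 6 none exceeded 10 counts.

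Of the class I partners, only Psmb10 was called higher against air. Psmb10 (gene ID 291983), an immunoproteasome subunit, ran from 31.8 over 39.9 to 47.8 CPM in air and from 37.5 over 52.9 to 59.5 CPM in the combined group. The ranges overlapped, the log2 fold change was 0.38 ± 0.13 (edgeR adjusted p = 0.0360), and the call was lost in DESeq2 and on leaving out air 1, air 2, air 5, combined 2, combined 5 or combined 6, with adjusted p up to 0.0835. The other immunoproteasome subunits were at 0.22 ± 0.12 (Psmb9) and 0.02 ± 0.20 (Psmb8), and the transporter genes at 0.19 ± 0.14 (Tap1) and −0.28 ± 0.28 (Tap2). Tapbp, at 0.24 ± 0.13, was called only without air 4 (adjusted p = 0.0376), the highest air library.

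B2m, the light chain of class I, showed a separation that the test did not call. It ran from 1713 over 1823 to 1903 CPM in air and from 1992 over 2084 to 2279 CPM in the combined group, with no overlap. Its log2 fold change of 0.22 ± 0.17 was not called (edgeR adjusted p = 0.392). Smoke 2 held B2m at 5454 CPM from 103 counts, and without that library the adjusted p was 0.0142.

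**Figure D3:**
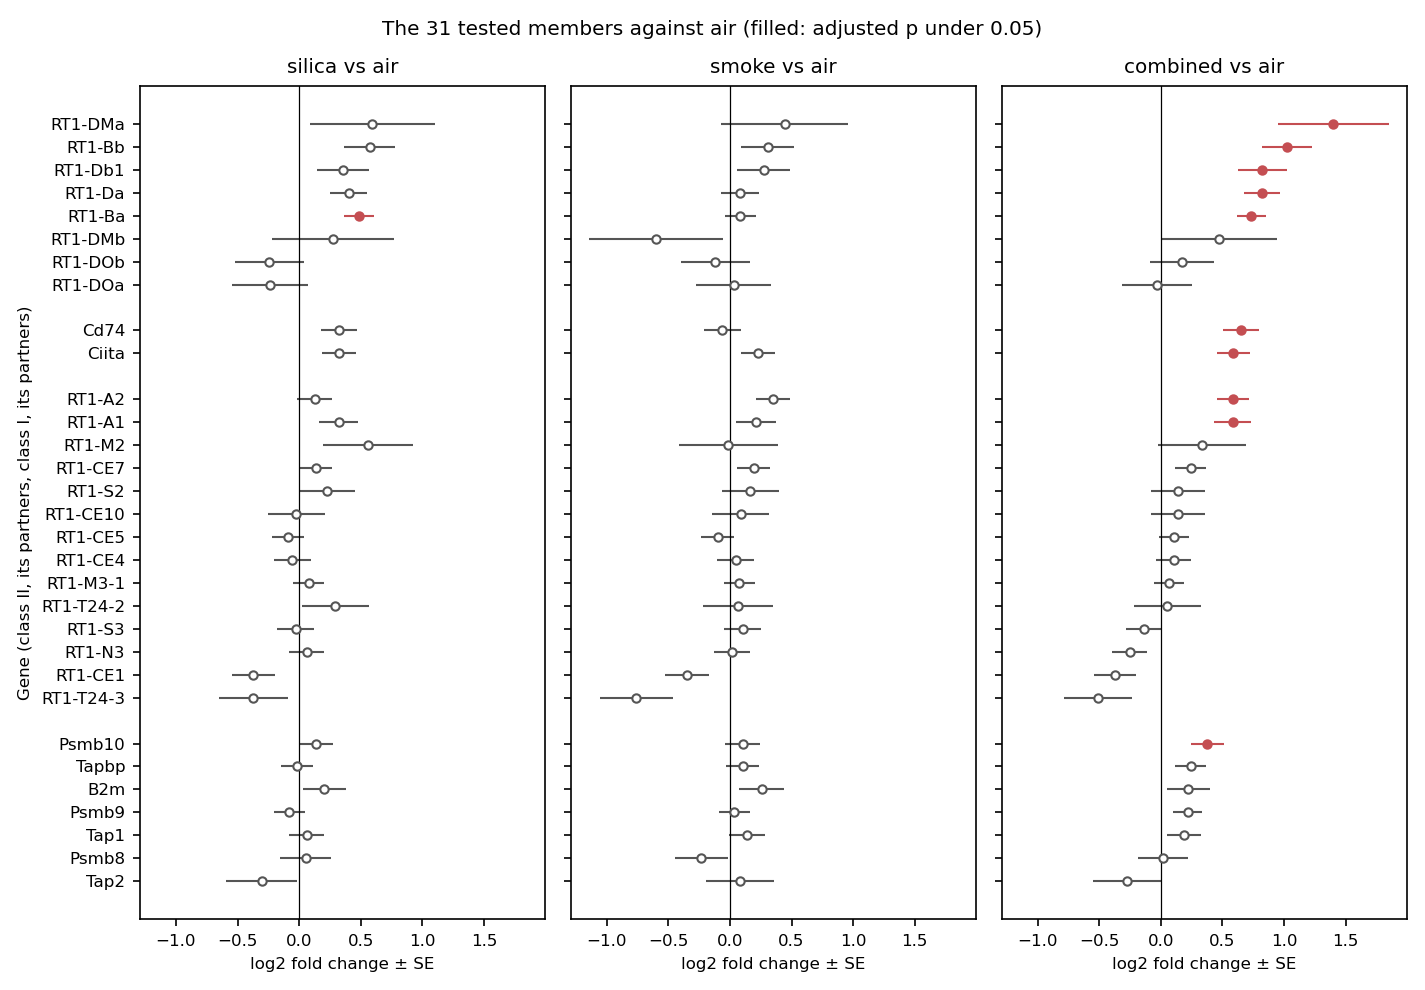
Log2 fold change with its SE for the 31 tested genes against air in silica, smoke and the combined group; filled red points have an adjusted p under 0.05 in edgeR. In the combined panel the filled points are 5 class II genes, Cd74, Ciita, RT1-A1, RT1-A2 and Psmb10, in the silica panel RT1-Ba alone, and in the smoke panel there is none.

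After silica alone, the medians of RT1-Ba, RT1-Bb, RT1-Da, RT1-Db1, RT1-DMa, Cd74 and Ciita lay between those of air and of the combined group. Against air, 1 of 31 members was called higher and 0 lower, beside 2.15% of all tested genes called higher, and 7 members had an unadjusted p under 0.05, as did 2427 of all 13322 genes. That member was RT1-Ba, with 69.4, 111 and 142 CPM as the lowest, median and highest silica values. It overlapped the air range through silica 1, and the log2 fold change was 0.49 ± 0.12 (edgeR adjusted p = 0.0253). The call was lost in DESeq2, in a fit of the 12 libraries alone, and without air 3, silica 2, silica 3, silica 5 or silica 6.

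No other class II gene or partner was called after silica; 5 of the other 7 class II genes and both partners had values above 0, while RT1-DOa and RT1-DOb were each at −0.24. RT1-Bb was at 0.57 ± 0.21 (edgeR adjusted p = 0.124), RT1-Da at 0.40 ± 0.15 (adjusted p = 0.137), Cd74 at 0.32 ± 0.15 (adjusted p = 0.238) and Ciita at 0.32 ± 0.14 (adjusted p = 0.204). Silica 1 was the lowest silica library for RT1-Bb, RT1-Da, Cd74 and Ciita. Without silica 1, 5 members were called higher: RT1-Ba, RT1-Bb (adjusted p = 0.0193), RT1-Da (adjusted p = 0.0116), Cd74 (adjusted p = 0.0393) and Ciita (adjusted p = 0.0482). The count of all genes called higher also grew, from 287 to 716. Without silica 1, smoke 1 and smoke 2 it was 5 members and 815 of all genes, and without those and air 6 it was 6 members and 895 of all genes. No class I gene or class I partner was called, and their median was 0.06 against 0.34 for class II and its partners.

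Smoke alone gave no call among the members. In smoke against air, 0 of 31 members were called by edgeR, beside 0.0976% of all tested genes called higher. The unadjusted p was under 0.05 for 2 members and for 1105 of all 13322 genes, and DESeq2 and limma voom called 0. RT1-Ba had 0, 78.8 and 96.9 CPM as the lowest, median and highest smoke values, with the 0 in smoke 2 and the highest in smoke 1, and a log2 fold change of 0.08 ± 0.13. RT1-Da (0.08 ± 0.16) and Cd74 (−0.06 ± 0.15) were as near to air. The sign for RT1-Da turned to −0.08 without smoke 1. RT1-A2 had the smallest adjusted p of the 10 members called in the combined group, at 0.35 ± 0.14 (edgeR adjusted p = 0.456). Over all 31 members the smallest was that of RT1-T24-3, at −0.76 ± 0.30 (edgeR adjusted p = 0.452). Air 6 held its highest air value, 54.5 CPM.

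Set against smoke, RT1-Ba, RT1-Bb, RT1-Da and Cd74 were higher in the combined group. Here 4 of 31 members were called higher and 0 lower, beside 7.34% of all tested genes called higher, which were 3 of 8 tested class II genes and 1 of 2 partners. RT1-Ba was at 0.65 ± 0.12 (edgeR adjusted p = 0.00134), RT1-Da at 0.74 ± 0.16 (adjusted p = 0.00300), RT1-Bb at 0.72 ± 0.21 (adjusted p = 0.0246) and Cd74 at 0.71 ± 0.15 (adjusted p = 0.00318). The RT1-Bb call was lost without smoke 3, smoke 4, smoke 6 or combined 6. All combined libraries lay above all smoke libraries for RT1-Ba and Cd74, which is 2 of 31 members, beside 4.51% of all tested genes.

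Smoke 1 was the highest smoke library for RT1-Ba, RT1-Bb, RT1-Da, RT1-Db1, RT1-DMa and Cd74. Without it 7 members were called higher than in smoke, with RT1-Db1, RT1-DMa and RT1-A1 added, while all genes called higher went from 978 to 1263. Without silica 1, smoke 1 and smoke 2 it was 8 members and 1353 of all genes, and without those and air 6 it was 10 members and 1780 of all genes. Of the class I genes and their partners, none was called in the fit of all libraries, where their median was 0.05 and that of class II and its partners 0.68.

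Between the combined and the silica group, no member was called by edgeR, beside 0.12% of all tested genes called higher, and 8 members had an unadjusted p under 0.05, as did 1713 of all 13322 genes. DESeq2 and limma voom called 0 members as well. All 10 tested class II genes and partners had a higher value in the combined group, with a median of 0.37 against 0.03 for the 21 class I genes and partners and −0.002 for all genes. RT1-Da was at 0.42 ± 0.15 (edgeR adjusted p = 0.228), RT1-Bb at 0.45 ± 0.21 (adjusted p = 0.348) and RT1-Ba at 0.25 ± 0.12 (adjusted p = 0.384). RT1-A2, at 0.46 ± 0.14, had the smallest adjusted p of any member, 0.135. For the 10 class II genes and partners the median fell to 0.26 without silica 1, smoke 1 and smoke 2.

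The design crosses silica and smoke, so the interaction asks whether the log2 change with both differed from the sum of the changes with each. It was called for 0 of 31 members and for 0% of all tested genes by edgeR, with 0 members and 977 genes at an unadjusted p under 0.05. DESeq2 called 1 gene and limma voom 9, none of them a member. The value was above 0 for all 10 tested class II genes and partners, with a median of 0.27 that went to 0.47 without smoke 1 and to 0.15 without smoke 4, and its standard errors ran as high as 0.73 for RT1-DMb. Cd74, at 0.39 ± 0.21, had the smallest unadjusted p of the 31 members (0.0740 in edgeR's test), and RT1-Da was at 0.34 ± 0.22. Since the comparisons with air share the air libraries, their values are set side by side only.

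The other genes of the pathway were read from lists of symbols. Of 12 tested genes for class II transcription and peptide loading, 4 were called higher in the combined group against air and none lower. Of all tested genes, 11.6% were called higher. Ifi30, the thiol reductase that opens antigens for class II, was at 1.09 ± 0.15, Ctss, the protease that trims the invariant chain, at 1.02 ± 0.16, and Lgmn, an asparaginyl endopeptidase of the same compartment, at 0.94 ± 0.17 (edgeR adjusted p = 7.43e-06, 3.07e-05 and 2.47e-04). March1, a ligase that removes class II from the surface, was at 0.42 ± 0.14 (adjusted p = 0.0377). The list's median was 0.09, the genes of the X and Y box proteins were not among those called, and Rfxap had no count in any group. With silica alone Ifi30 (0.72 ± 0.15) and Ctss (0.66 ± 0.16) were called, with smoke alone none, and the same 4 genes were called in the combined group against smoke. The share of all tested genes called higher was 2.15% in silica against air and 7.34% in combined against smoke.

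Of 12 other class I and peptide supply genes, 4 were called higher in the combined group against air, all by less than 0.5 on the log2 scale: Calr, a chaperone of the loading complex, at 0.40 ± 0.10, the proteasome activators Psme2 at 0.43 ± 0.14 and Psme3 at 0.42 ± 0.11, and Psmb7, the constitutive subunit that Psmb10 replaces, at 0.33 ± 0.09. All 12 had a value above 0, with a median of 0.28. For this list and those that follow, the share of all tested genes called higher was 11.6%. On the interferon-gamma axis, which drives Ciita and the immunoproteasome, 4 of 12 tested genes were called higher: the receptor chain Ifngr2 at 0.42 ± 0.12, the kinase Jak2 at 0.26 ± 0.07, the factor Irf8 at 0.56 ± 0.14 and the chemokine Cxcl9 at 1.47 ± 0.33. The median of that list was 0.08. Of 5 tested genes that modulate T cell activation beside the MHC, 3 were called higher: Cd86 at 0.84 ± 0.23, Cd83, which keeps class II on the surface, at 0.72 ± 0.18, and the inhibitory ligand Cd274 at 1.10 ± 0.18. None of 5 class I-like genes outside the RT1 names was called.

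Some markers of cells known to carry class II were also higher in the combined group, and others were not. Macrophage markers, 9 tested of 10, had 4 called higher in the combined group against air (Cd68, Siglec1, Lyz2 and Msr1) and 1 lower (Cd163, at −1.33 ± 0.23). Their summed level ran from 9371 to 21806 CPM in air, 13886 to 32526 in silica, 3495 to 25219 in smoke and 29745 to 37229 in the combined group, and Marco had no count in air. Of the 9 tested macrophage markers, 6 had a value above 0 against air, with a median log2 fold change of 0.24. A summed level follows the most abundant genes of its list and need not follow that median. Of all tested genes, 11.6% were called higher in the combined group. Dendritic cell markers, 6 tested of 9, had 2 called higher, Itgax at 1.00 ± 0.18 and Clec9a at 0.95 ± 0.25, with Cd209a at 0 in all groups. Their sum ran from 125 to 149 CPM in air, 118 to 194 in silica, 106 to 206 in smoke and 170 to 218 in the combined group. Of the 6 tested, 4 had a value above 0 against air, with a median of 0.21. The part of these cells in the class II result was not tested.

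Alveolar type 2 cell markers had 4 of 8 called higher (Sftpa1, Sftpd, Lamp3 and Napsa), and their sum ran from 14354 to 23268 CPM in air and from 26613 to 31133 in the combined group, with 14712 to 27816 in silica and 1906 to 22546 in smoke. All 8 had a value above 0 in the combined group against air, with a median log2 fold change of 0.57. B and plasma cell markers had 1 of 7 tested called higher, Mzb1 at 1.05 ± 0.25, and their summed ranges overlapped, at 43.0 to 96.5 CPM in air, 32.3 to 60.7 in silica, 43.5 to 71.4 in smoke and 33.8 to 78.1 in the combined group. Only 2 of these 7 had a value above 0 against air, with a median of −0.18, so Mzb1 went against most of its list. Of the T cell markers 1 of 8 (Cd5) was called higher and of the NK cell markers 0 of 5. Of all 13322 tested genes, 1441 were called lower in the combined group against air. Among markers of other lung cells, 2 of 4 for alveolar type 1 cells, 1 of 3 for airway club cells and 4 of 5 for endothelium were called lower. Their part in the class II result was not tested. Silica 1 had the lowest summed level among silica libraries of macrophage, dendritic and type 2 cell markers and also of class II genes, and smoke 1 the highest among smoke libraries.

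Summed over the 10 class II genes, the lowest, median and highest libraries were at 469, 648 and 681 CPM in air, 465, 847 and 1045 in silica, 265, 607 and 924 in smoke, and 880, 1033 and 1376 in the combined group. The combined libraries were above all air libraries, and overlapped the silica and the smoke range. The 29 class I genes summed to medians of 658 CPM in air, 629 in silica, 666 in smoke and 632 in the combined group, with overlapping ranges throughout.

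**Figure D4:**
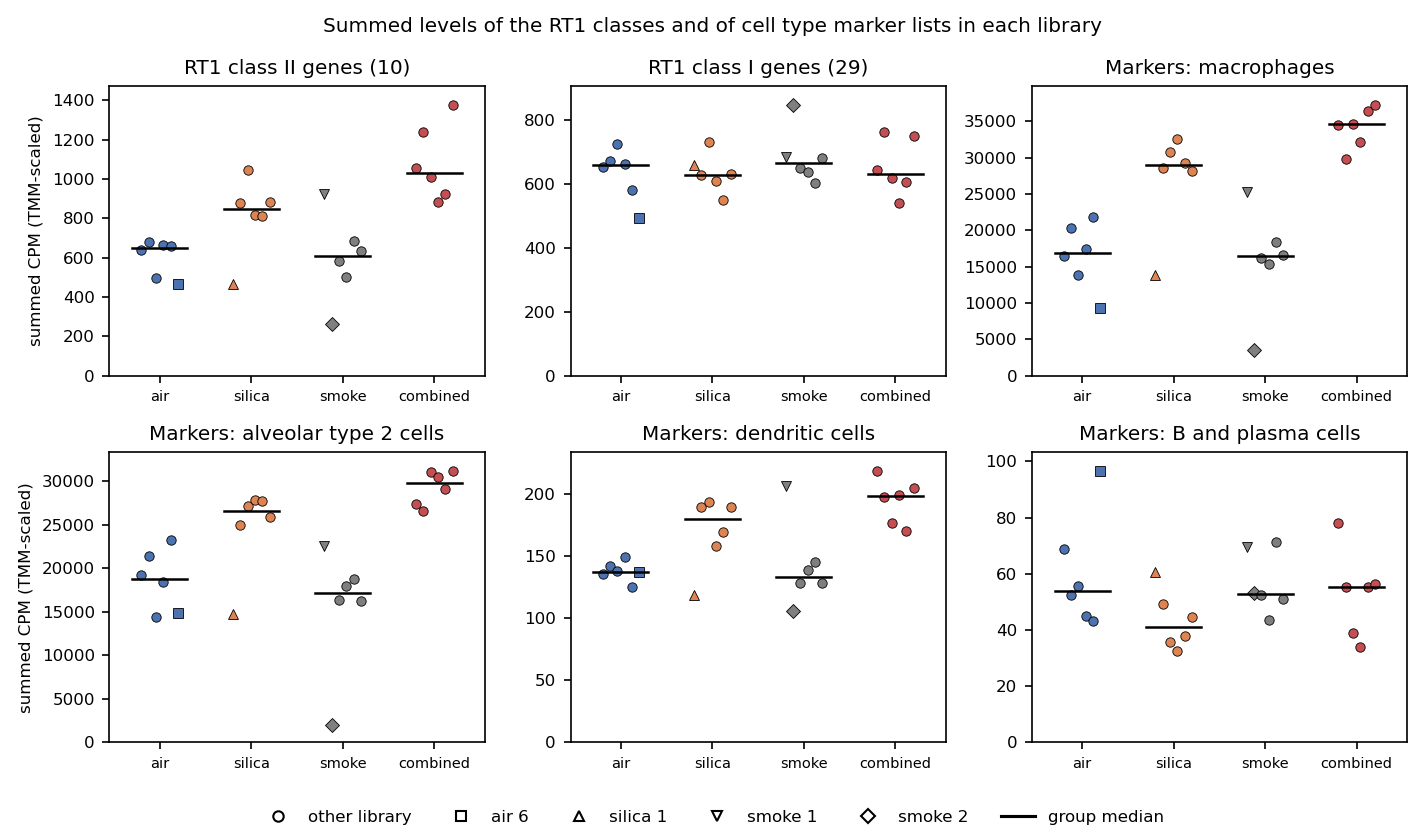
Summed TMM-scaled CPM of the class II genes, the class I genes and 4 marker lists in each library by group, with lines at the group medians and separate symbols for air 6, silica 1, smoke 1 and smoke 2. Class II, macrophage, dendritic and alveolar type 2 cell sums are higher in every combined library than in every air library. Class I sums overlap in all groups. Each sum follows the most abundant genes of its list.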

How the data were processed

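Read counts per gene of 24 lung libraries, not normalized, were deposited by the authors as 1 table. The submitters' processing notes name HISAT2 2.1.0, HTSeq 0.11.2, SAMtools 1.8, Cufflinks, Trimmomatic 0.35 and bcl2fastq 2.19. Build, annotation and strand setting were not given in the sources used here. According to the labels' protocols, total RNA was depleted of ribosomal RNA and made into stranded libraries. After removal of 26 repeated lines from 30069, 30043 genes remained. In R 4.3.3, edgeR 4.0.16 kept 13322 genes (filterByExpr, minimum count 10), scaled libraries by TMM and fitted 4 group means in 1 quasi-likelihood model to all 24 libraries (20 residual degrees of freedom). Tests were two-sided, with Benjamini-Hochberg adjustment over all genes tested. Values after ± are standard errors, computed as the absolute log2 fold change over the square root of F. The fit was tested on simulated counts. Alternatives were RLE scaling, no filter, DESeq2 1.42.0, limma 3.58.1 voom with quality weights, only the 12 libraries compared, and libraries left out. Leaving out air 6 together with silica 1, smoke 1 and smoke 2 was chosen after seeing the data. No 2 libraries of a group agreed within sampling noise (chi-square at least 1.73 per degree of freedom). Members and lists were chosen with earlier results of these data known. Every member called in a comparison was named, with a preset list of the chains and partners. RT1-CE and RT1-N genes were named with a mean of at least 10 CPM. Other class I genes, and RT1-N2, were named where they ended a range, were flagged, turned sign or stood out in a library. Promoter windows came from RefSeq (GRCr8). Counting error and the spread between animals both limit the precision of low genes.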

Additional observations from a re-analysis of the deposited data

Results flagged for a closer look

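The 33 members with a mean of at least 1 CPM over all libraries were screened, which gave 132 groups of 6 libraries. Of these groups, 28 had a highest or lowest library far from the other 5, where chance gives about 1 in 20 groups. RT1-N2, at a mean of 1.37 CPM, entered the screen only through its value in air 6. Its flags therefore follow partly from this choice of members. Smoke 2, the shallowest library, accounts for 13 and silica 4, the next, for 4. Smoke 2 stood lowest at 0 CPM for RT1-Ba, RT1-CE1, RT1-CE4, RT1-M3-1, RT1-S2, Tap1, Tapbp, Psmb8 and Psmb10. It stood highest for RT1-CE7 at 106 CPM and RT1-T24-3 at 106 CPM, each from 2 counts, for RT1-S3 at 371 CPM from 7 counts and for B2m at 5450 CPM from 103 counts. Silica 4 was highest for RT1-CE10 at 21.5 CPM (6 counts), Psmb8 at 43.1 CPM (12 counts) and Psmb9 at 57.4 CPM (16 counts), and lowest for RT1-S2 at 0 CPM.

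In deeper libraries, RT1-N2 was at 23.4 CPM (114 counts) in air 6, where the next highest air library had 0.659 CPM, and RT1-T24-3 at 54.5 CPM (266 counts), where the next had 20.4 CPM. RT1-N2 was also flagged at 2.14 CPM in smoke 5 and 1.88 CPM in combined 4, from 3 and 2 counts. Cd74 stood lowest in silica 1 at 808 CPM against at least 1350 CPM in the other silica libraries. Ciita was lowest in air 3 at 24.4 CPM, RT1-CE1 lowest in combined 1 at 8.14 CPM and RT1-CE10 highest in combined 2 at 23.7 CPM. Tapbp was highest in air 4 at 134 CPM and in silica 3 at 132 CPM, and Psmb8 was highest in combined 6 at 28.4 CPM against at most 14.6 CPM in the others.

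B2m differed in sign between silica minus air and combined minus smoke when taken against group means, and this rests on smoke 2. Every silica library was above the air mean, by 82.3 to 535 CPM with a mean of 277 CPM, and every combined library was below the smoke mean, by −447 to −160 CPM with a mean of −318 CPM. The smoke mean includes the 5450 CPM of smoke 2. The next highest smoke library had 1990 CPM and the smoke median was 1818 CPM, below all combined libraries (1992 to 2279 CPM). Without smoke 2, combined against smoke was 0.21 (edgeR adjusted p = 0.0393), the same direction as silica against air, and with all libraries edgeR's interaction for B2m was not called (−0.24 ± 0.25, adjusted p = 0.888).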

How the results depend on the processing

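No paired analysis was possible because the library numbers follow deposit order and the labels share no number between groups. Counts of members called in combined against air, combined against silica, smoke against air and the interaction stayed within 1.5 times the value from all libraries in every alternative. These counts take higher and lower calls together. In combined against air, lower calls went from 0 to 2 in limma voom. They went to 3 without air 6, and also to 3 without air 6, silica 1, smoke 1 and smoke 2. For silica against air (1 member), DESeq2 and the fit of only the 12 libraries gave 0, leaving out silica 1, smoke 1 and smoke 2 gave 5, leaving out air 6 as well gave 6, and leaving out single libraries gave 0 to 5. For combined against smoke (4 members), limma voom gave 7, leaving out silica 1, smoke 1 and smoke 2 gave 8, leaving out air 6 as well gave 10, and single libraries gave 3 to 7. No other scaling moved the median of all genes by over 0.1. The cause was not tested.

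Turns of sign are listed for every tested member in combined against air. In the other pairwise comparisons they are listed for the 10 members called there. Other turns are not listed, such as those of RT1-CE4, RT1-CE5, RT1-CE7 and RT1-CE10 in silica against air. The listed log2 fold changes that turned sign were not called in either direction. In smoke against air, RT1-Da was at −0.0260 in voom, −0.0676 without silica 1, smoke 1 and smoke 2, and −0.12 without air 6 as well. RT1-DMa was at −0.11 and −0.30 in the last 2 settings, and without all 4 libraries RT1-A1 was at −0.00165, RT1-Bb at −0.00403 and RT1-Db1 at −0.00798. In combined against air, RT1-DOa was at 0.17 in voom and 0.24 without the 4 libraries, RT1-T24-2 at −0.0416 and −0.0194, Psmb8 at −0.000304 in voom, and without the 4 libraries RT1-CE4 was at −0.00767, RT1-S2 at −0.0662 and RT1-T24-3 at 0.0592. Leaving out single libraries, the ranges that crossed 0 were −0.0766 to 0.16 (RT1-Da) and −0.11 to 0.78 (RT1-DMa) in smoke against air, and in combined against air −0.20 to 0.11 (Psmb8), −0.0598 to 0.21 (RT1-T24-2), −0.13 to 0.23 (RT1-DOa), −0.00996 to 0.19 (RT1-CE4), −0.0675 to 0.26 (RT1-S2), −0.61 to 0.0608 (RT1-T24-3) and −0.0740 to 0.28 (RT1-CE10).

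Depth limits the sparse genes. Before TMM scaling, 3 counts were worth 139 CPM in smoke 2 and 1.29 CPM at the median depth. The latter is near the levels of RT1-DMa and the RT1-DO chains.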

Other observations

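The chains of the RT1-B pair were compared by their counts within each library. RT1-Bb had 1.67 to 3.15 counts for each count of RT1-Ba, with a median of 2.33, in the 22 libraries other than air 6 and smoke 2. In air 6 the ratio was 0.947. The same library held 50 counts of RT1-T24-1, a gene with at most 2 counts in any other library, and 114 counts of RT1-N2, with at most 3 elsewhere. These values were noticed in the data, and their cause was not tested.

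RT1-DMb varied widely between animals of a group. In air it had 2 counts in air 1 (1.05 CPM) and 52 in air 2 (25.4 CPM), and in smoke 3 counts in smoke 4 and 39 in smoke 3, while RT1-DMa in those libraries had 9, 3, 5 and 7 counts. The combined libraries ran from 10 to 67 counts of RT1-DMb.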
